A study of Mus musculus with 12 samples.

Results

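EphA receptors are the receptor tyrosine kinases of the Eph family that bind mainly the ephrin-A ligands. The genes described here are the 9 EphA receptor genes of the mouse (Epha1 to Epha8 and Epha10), chosen by gene symbol from the 30740 genes in the table of estimated counts, and every one of the 9 was found. Their RNA was measured by RNA-seq of polyA RNA from ventral spinal cord at E12.5 in the CB6F1/J background. The GFP-positive groups held 5 libraries from Arhgap35 (p190) knockout embryos and 5 from control littermates, and the GFP-negative groups held 1 library from each genotype. All embryos carried the Hb9:GFP reporter, in which regulatory sequence of the homeobox gene Hb9 (Mnx1) drives GFP in motor neurons, and cells were sorted by that GFP. According to the protocol, controls were wild type or p190+/-, although the labels call them wild type, and tissue from several embryos was combined before sorting. The labels do not say whether replicates came from separate litters, so a p-value here measures the spread between these libraries, which may be technical.

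Eph receptors and their ephrin ligands sit on the surfaces of neighbouring cells and signal on contact. Ephrin-A ligands are held in the membrane by a lipid anchor, whereas ephrin-B ligands span it, and binding commonly makes a growth cone turn away. In the spinal cord the pathway is best known for steering motor axons: Epha4 on limb-innervating motor neurons helps direct their axons into the dorsal limb, and EphA receptors on other motor neurons take part in keeping axons out of territories that carry ephrin-A. Arhgap35 encodes p190RhoGAP, an enzyme that switches off the small GTPase RhoA.

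Library depth was 24.6 to 33.8 M estimated counts in the knockout and 23.7 to 30.2 M estimated counts in the control GFP-positive libraries, and 26.5 M and 28.7 M in the knockout and control GFP-negative libraries. The targeted gene Arhgap35 averaged 96.8 ± 7.84 CPM (counts-per-million values) in knockout and 172.7 ± 25.6 CPM in control GFP-positive cells (SD, n = 5 each), with groups that did not overlap (log2 fold change -0.83, edgeR adjusted p = 0.0240). That call held when control replicate 5 was left out (adjusted p = 0.000758) and was lost when any of the other 9 libraries was left out, with adjusted p up to 0.141, and when replicate numbers were blocked (adjusted p = 0.162, log2 fold change -0.82). Arhgap35 stood at 96.3 CPM in the knockout and 154.8 CPM in the control GFP-negative library. The 8 motor neuron markers Mnx1, Isl1, Isl2, Chat, Slc18a3, Slc5a7, Prph and Lhx3 all had higher means in GFP-positive cells, where their summed level was 1551 to 1916 CPM in knockout and 1480 to 1942 CPM in control libraries, against 48.0 and 50.7 CPM in the GFP-negative libraries. The labels call the GFP-negative cells motor neurons too. By these markers, they were depleted of motor neuron RNA.

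The promoters of a few members are shown to set genes that moved in opposite directions side by side: Epha4, the most abundant receptor, and Epha5 were higher in GFP-positive cells, and Epha2 was lower. Epha10 and Epha8, whose rise was larger, are not printed. Each sequence is the 250 bases before the RefSeq transcription start (GRCm38.p6), written 5′ to 3′ on the gene's strand. The windows are chr1:77515089-77515338 on the minus strand for Epha4, chr5:84417383-84417632 on the minus strand for Epha5 and chr4:141300971-141301220 on the plus strand for Epha2. Capitals mark CCAAT (the CCAAT box), GGGCGG (the GC box that Sp1 family factors bind), TGACGTCA (the cyclic AMP response element) or TAATTA (a core that many homeodomain proteins recognise), each searched on both strands.
Epha4: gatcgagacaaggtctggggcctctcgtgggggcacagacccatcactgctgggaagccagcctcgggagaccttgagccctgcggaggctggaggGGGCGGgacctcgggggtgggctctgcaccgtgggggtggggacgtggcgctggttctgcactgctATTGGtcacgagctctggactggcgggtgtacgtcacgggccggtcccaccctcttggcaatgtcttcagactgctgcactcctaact
Epha5: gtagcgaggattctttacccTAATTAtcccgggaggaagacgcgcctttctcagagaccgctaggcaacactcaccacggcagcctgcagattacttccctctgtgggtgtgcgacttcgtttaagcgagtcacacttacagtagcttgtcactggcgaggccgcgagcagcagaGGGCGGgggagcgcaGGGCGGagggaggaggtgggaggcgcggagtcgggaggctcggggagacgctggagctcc
Epha2: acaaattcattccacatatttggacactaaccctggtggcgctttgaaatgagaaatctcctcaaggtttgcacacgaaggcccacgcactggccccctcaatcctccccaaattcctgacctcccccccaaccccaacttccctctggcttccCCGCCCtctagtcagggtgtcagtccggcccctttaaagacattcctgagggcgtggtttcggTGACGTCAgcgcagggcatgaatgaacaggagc
No capitalised motif overlaps another in these windows. The Epha4 window held 1 CCAAT and 1 GGGCGG, the Epha5 window 2 GGGCGG and 1 TAATTA, and the Epha2 window 1 GGGCGG and 1 TGACGTCA. All 9 members had a RefSeq promoter, and among them CCAAT occurred in 5, GGGCGG in 8, TGACGTCA in 1 (Epha2) and TAATTA in 1 (Epha5). Over 27025 mouse promoters of the same length, CCAAT occurred in 34.5%, GGGCGG in 32.9%, TGACGTCA in 1.62% and TAATTA in 4.90%. The E-box pattern CANNTG occurred in 4 of the 9, against 66.0% of all promoters. The 9 windows had a GC content of 54.4% (Epha1) to 84.0% (Epha8), and each was above the median of 52.0% for all promoters. A match describes these letters in this window and is not a site shown to be used.

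Within GFP-positive cells the receptors covered a wide range of levels per transcript length, from Epha4 at the top to Epha1 at the bottom. Levels of different genes are compared here in the deposited TPM (transcripts-per-million values), which account for transcript length. Epha4 averaged 86.3 ± 5.64 TPM over the 10 GFP-positive libraries (SD), with a range of 79.3 to 97.3 TPM. Every GFP-positive library placed Epha4 above all other members.

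Below Epha4 came a group of similar levels. Epha10, a receptor whose kinase domain is thought to be inactive, averaged 50.5 TPM (range 42.8 to 58.3). Epha5, known for mapping retinal and other sensory axons, averaged 44.7 TPM (range 39.8 to 47.4). Epha3, a receptor of trunk motor axons among other cells, averaged 42.1 TPM (range 32.6 to 49.3). Over the 10 libraries the ranges of Epha10 and Epha5 overlapped, with Epha10 higher in 9 of 10. So did those of Epha5 and Epha3, with Epha5 higher in 7 of 10. In the 5 control libraries Epha10 (47.9 to 58.3 TPM) lay above Epha5 (43.0 to 47.4 TPM) without overlap. In the 5 knockout libraries their ranges overlapped, with Epha10 higher in 4. Epha7, which also has truncated forms without a kinase domain, followed at 26.1 TPM (range 20.2 to 34.5) and lay below Epha3 in all 10 libraries, although the ranges overlapped.

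The last members were low. Epha8, first known from axons of the midbrain, averaged 8.77 TPM (range 7.61 to 10.8). Epha6 averaged 2.28 TPM (range 1.81 to 2.68) and Epha2, a receptor best known from epithelia, averaged 1.52 TPM (range 0.906 to 2.53), with Epha6 higher in 9 of 10 libraries and overlapping ranges. In CPM, which do not account for transcript length, Epha6 (3.23 to 4.92) lay above Epha2 (0.530 to 1.42) without overlap. The TPM of Epha2 depends on an assigned transcript length that differed by sort, as described below. Epha1, the first Eph receptor described and mainly an epithelial one, averaged 0.233 TPM and rested on 6.17 to 12.8 estimated counts per GFP-positive library, so its level is the least certain. The order was the same by medians, in the 5 knockout libraries alone and in the 5 control libraries alone.

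**Figure D1:**
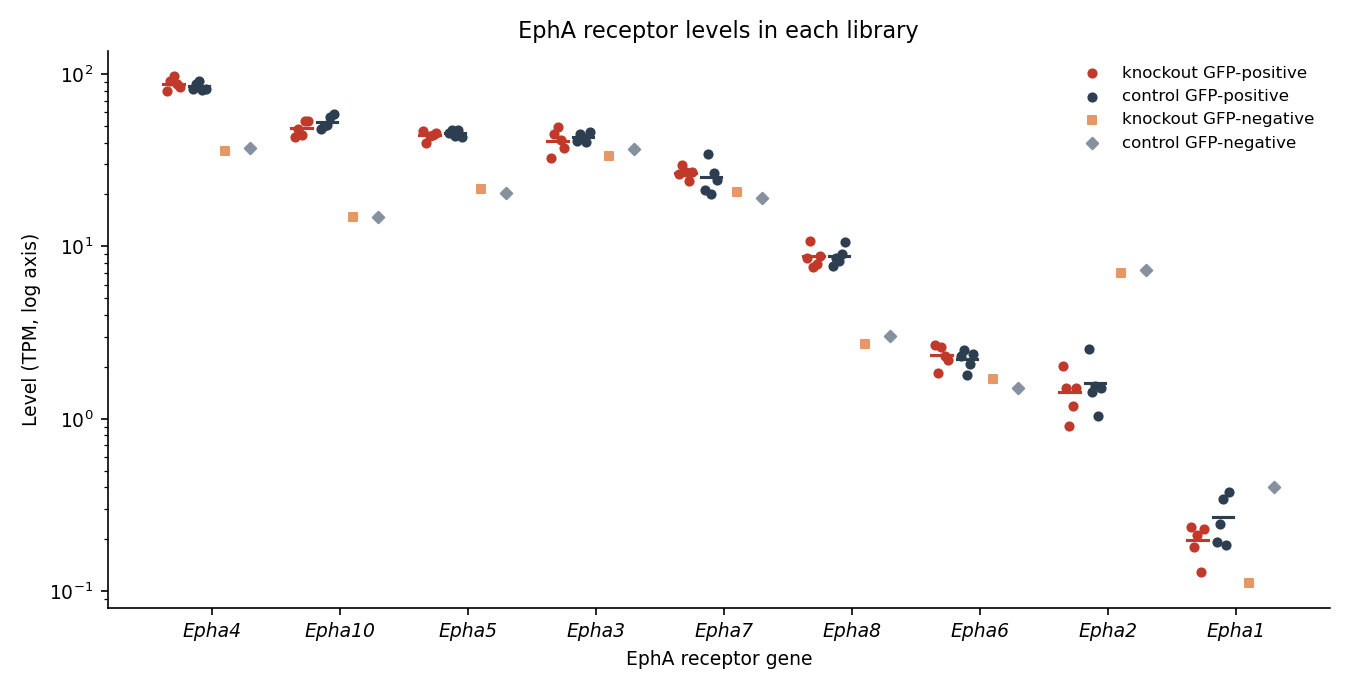
Level of each EphA receptor in every library (TPM, log axis), as points for the 5 knockout and 5 control GFP-positive libraries and the 1 knockout and 1 control GFP-negative library, with horizontal bars for the means of the GFP-positive groups. Knockout and control points overlap for every receptor, while Epha4, Epha10, Epha5, Epha8 and Epha6 lie above, and Epha2 below, both GFP-negative libraries.

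The 9 receptors together summed to 260.8 ± 11.9 TPM in knockout and 264.1 ± 9.97 TPM in control GFP-positive libraries (SD, n = 5 each), against 137.7 and 140.2 TPM in the knockout and control GFP-negative libraries. Epha4 made up 32.9 ± 1.67% of the sum over the 10 GFP-positive libraries and 26.1% in GFP-negative cells (mean of 2). Epha10 made up 19.2% of the sum in GFP-positive and 10.6% in GFP-negative cells. Epha3, Epha7 and Epha2 took smaller shares in GFP-positive cells: 16.0% against 25.3% for Epha3, 9.93% against 14.3% for Epha7 and 0.584% against 5.15% for Epha2. The shares of Epha2 carry the limit of its TPM given above. In GFP-negative cells Epha4 and Epha3 led at 36.3 and 35.2 TPM, with overlapping ranges, and Epha10 stood in the fifth place at 14.8 TPM.

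**Figure D2:**
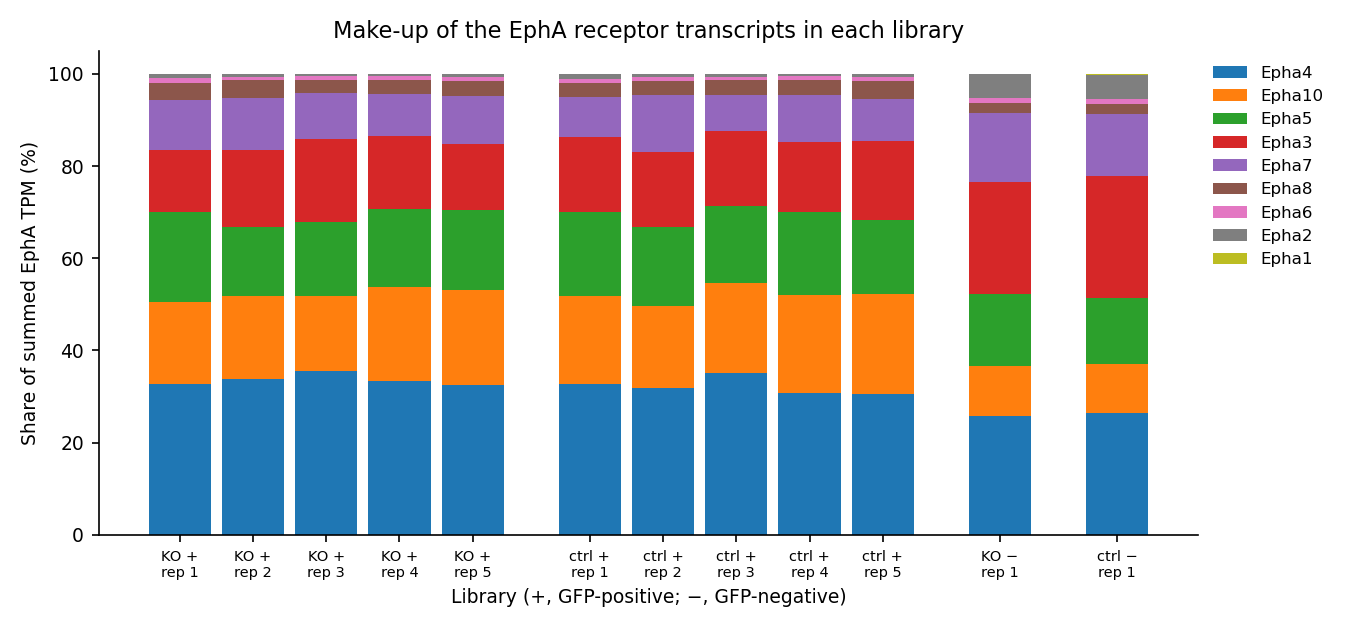
Share of each receptor in the summed EphA TPM (%), as stacked bars for each library: KO, knockout; ctrl, control; + and −, GFP-positive and GFP-negative; rep, replicate. The GFP-positive bars are alike in both genotypes, with Epha4 at 30.6 to 35.6%, and the GFP-negative bars hold more Epha3, Epha7 and Epha2.

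The comparison of sorted populations asked which receptors differed between GFP-positive and GFP-negative cells of the ventral cord. Both GFP-negative libraries carry replicate number 1, so GFP-positive libraries of other numbers had no GFP-negative library of that number. The main fit did not match libraries. Of the 9 receptors, 6 were higher in GFP-positive cells (Epha10, Epha8, Epha4, Epha5, Epha6 and Epha7), 1 was lower (Epha2), and Epha3 and Epha1 did not pass the test. Over all 19763 genes tested in this comparison, 30.1% were called higher and 31.8% lower (edgeR's quasi-likelihood test with Benjamini-Hochberg adjustment, threshold 0.05, genotype as a covariate), so a call by itself is common here. The filter on low counts follows the smallest group, which here is 1 library. A gene with enough counts in any 1 library was therefore tested, and the shares over all genes include such genes. In CPM, the same 6 receptors lay above and Epha2 below the GFP-negative libraries without overlap, against 29.1% and 31.7% of all genes. The median log2 fold change was 0.44 over the receptors and 0.02 over all genes tested, and called genes had a median absolute log2 fold change of 0.73. In bulk samples, a lower share of cells that express a gene cannot be told apart from less of its RNA in each cell.

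Epha10 had the largest increase among the receptors. It stood at 67.9, 74.8, 69.1, 81.2 and 80.0 CPM in knockout and 70.7, 73.1, 81.6, 87.4 and 86.5 CPM in control GFP-positive libraries, against 21.3 CPM in the knockout and 23.3 CPM in the control GFP-negative library. All 10 GFP-positive libraries lay well above both GFP-negative ones. The log2 fold change was 1.79 (SE 0.10, 95% interval 1.58 to 2.01, edgeR adjusted p = 4.90e-09), and the ratio of mean CPM was 3.47. On the genome (GENCODE M21, GRCm38) Epha10 spans chr4:124880899-124917800 on the plus strand, and 79 of its exonic bases lie under 1700125G02Rik on the other strand, whose reads this strandless library could not tell apart.

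Epha8 showed the next largest rise from a lower level. It had 17.5, 22.4, 15.7, 16.0 and 18.2 CPM in knockout and 15.7, 17.5, 17.2, 18.5 and 21.9 CPM in control GFP-positive libraries, against 5.73 and 6.30 CPM in the knockout and control GFP-negative libraries. The lowest GFP-positive library was more than double the highest GFP-negative one (log2 fold change 1.58, SE 0.15, edgeR adjusted p = 6.36e-07). Epha8 lies at chr4:136929419-136956816 on the minus strand.

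Epha4 combined the highest level with a clear difference. It had 215.5, 252.2, 267.3, 236.8 and 232.0 CPM in knockout and 223.9, 240.9, 257.7, 222.9 and 227.3 CPM in control GFP-positive libraries, against 100.2 and 103.7 CPM in the knockout and control GFP-negative libraries. The groups did not overlap, and the log2 fold change was 1.22 (SE 0.08, 95% interval 1.05 to 1.39, edgeR adjusted p = 1.52e-08). Epha4 lies at chr1:77367185-77515088 on the minus strand.

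Epha5 was the steadiest member across GFP-positive libraries. It had 111.6, 98.1, 105.8, 107.7 and 104.7 CPM in knockout and 111.5, 108.4, 108.0, 115.7 and 102.8 CPM in control GFP-positive libraries, against 57.3 and 53.9 CPM in the knockout and control GFP-negative libraries. Again no GFP-positive library reached down to the GFP-negative level, and the log2 fold change was 0.95 (SE 0.06, 95% interval 0.83 to 1.07, edgeR adjusted p = 8.23e-09). Epha5 lies at chr5:84054761-84417382 on the minus strand.

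Epha7 and Epha6 passed the threshold by a small margin. Epha7 (chr4:28813131-28967499, plus strand) ranged from 51.4 to 56.3 CPM in knockout and from 46.0 to 67.4 CPM in control GFP-positive libraries, against 45.3 and 40.8 CPM in the knockout and control GFP-negative libraries. The lowest GFP-positive library was close to the higher GFP-negative one, and on the TPM scale the groups overlapped. Its log2 fold change was 0.32 (95% interval 0.08 to 0.56, edgeR adjusted p = 0.0248). Epha6 (chr16:59653483-60605531, minus strand), a receptor best known from the retina and brain, ranged from 3.26 to 4.92 CPM in knockout and from 3.23 to 4.55 CPM in control GFP-positive libraries, against 3.18 and 2.81 CPM in the knockout and control GFP-negative libraries, a log2 fold change of 0.44 (edgeR adjusted p = 0.0308). Both calls ended when either GFP-negative library was left out: the adjusted p was then 0.236 (without control) and 0.0885 (without knockout) for Epha6, and 0.218 and 0.0758 for Epha7. When replicate numbers were blocked, Epha7 was no longer called (adjusted p = 0.123, log2 fold change 0.23), which left 5 receptors called higher. Both GFP-negative libraries carry replicate number 1, so the blocked fit sets them against the GFP-positive libraries of that number alone. For Epha6, 107 exonic bases lie under Gm9017 on the other strand.

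Epha3 (chr16:63543534-63864175, minus strand) did not pass the test. It had 75.6, 104.9, 116.4, 95.2 and 87.6 CPM in knockout and 95.5, 105.2, 102.8, 94.2 and 107.8 CPM in control GFP-positive libraries, against 82.7 and 87.5 CPM in the knockout and control GFP-negative libraries. Knockout replicate 1 lay below both GFP-negative libraries and the other 9 GFP-positive libraries above both. The log2 fold change was 0.21 (95% interval -0.05 to 0.47, edgeR adjusted p = 0.147), and without that library it was 0.25 (adjusted p = 0.0279). When replicate numbers were blocked it was 0.0057 (adjusted p = 0.978), an estimate that rests on replicate number 1, with the low knockout library among its GFP-positive libraries. Epha1 (chr6:42358487-42373268, minus strand) had 0.178 to 0.342 CPM in knockout and 0.251 to 0.550 CPM in control GFP-positive libraries, against 0.146 and 0.440 CPM in the knockout and control GFP-negative libraries. The groups overlapped (log2 fold change 0.20, 95% interval -0.70 to 1.10, edgeR adjusted p = 0.704), and 236 of its exonic bases lie under Zyx on the other strand.

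**Figure D3:**
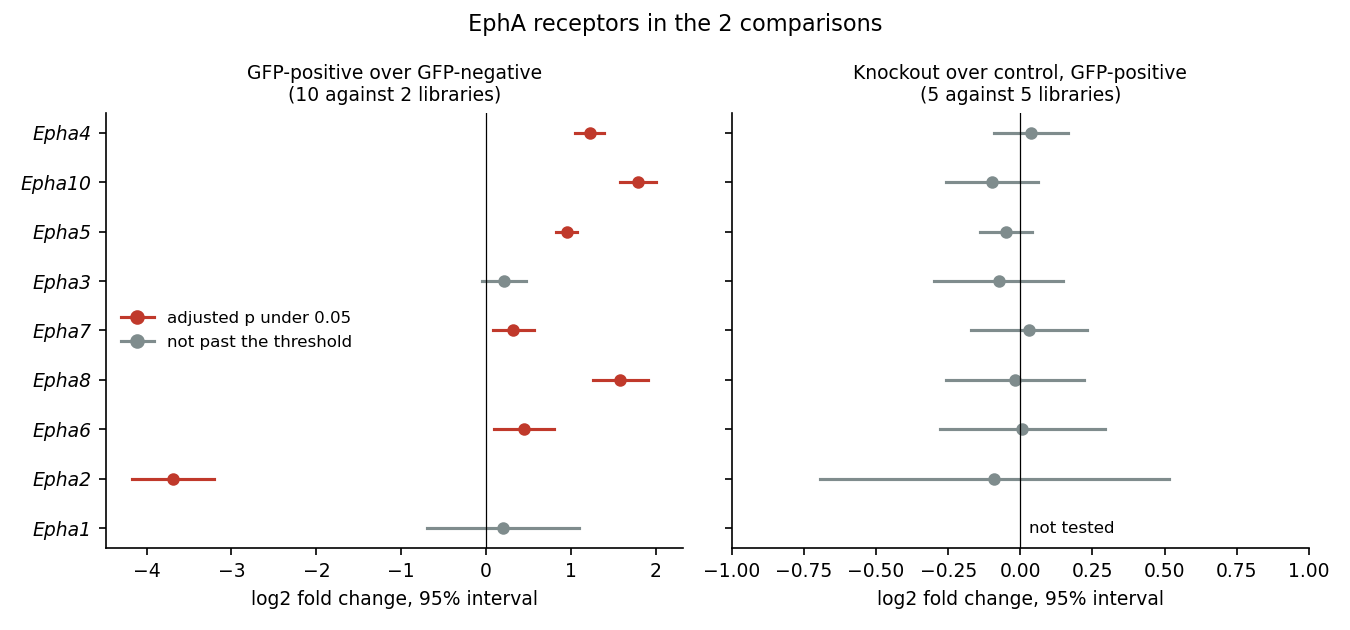
Log2 fold change of each EphA receptor with its 95% interval from the edgeR fits, GFP-positive over GFP-negative cells (left, 10 against 2 libraries) and knockout over control in GFP-positive cells (right, 5 against 5 libraries, on a narrower axis), in red where the adjusted p is under 0.05. On the left, 6 receptors lie right of 0 and Epha2 lies far left of it; on the right every interval includes 0, and Epha1 was not tested.

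Epha2 was the sole receptor called lower in GFP-positive cells. It lies at chr4:141301240-141329384 on the plus strand. It had 1.18, 0.908, 0.530, 0.682 and 0.820 CPM in knockout and 1.42, 0.807, 0.797, 0.585 and 0.720 CPM in control GFP-positive libraries, against 10.4 and 11.7 CPM in the knockout and control GFP-negative libraries. In estimated counts this was 12.6 to 43.0 per GFP-positive library, against 284.8 and 344.0 in the knockout and control GFP-negative libraries. All 10 GFP-positive libraries lay far below both GFP-negative ones (log2 fold change -3.69, SE 0.22, 95% interval -4.17 to -3.21, edgeR adjusted p = 9.91e-09).

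The size of the Epha2 difference depended on the unit. The mean in GFP-negative cells over that in GFP-positive cells was 13.0 in CPM (ratio of means) and 4.71 in TPM, where the levels were 1.52 TPM in GFP-positive and 7.16 TPM in GFP-negative cells. With limma on log2(TPM + 1) the log2 fold change was -1.72, and on log2(TPM + 0.1) it was -2.22. The added 1 is close to the 1.52 TPM of GFP-positive cells, which makes the first of these smaller in size. The gap between the scales was examined through the estimated count that went with each TPM, set relative to the median gene of the same library, a quantity that tracks the transcript length the quantification assigned to the gene; this measure was chosen after the values were seen. For Epha2 it was 0.516 in GFP-positive libraries (range 0.452 to 0.546, n = 10) and 1.34 and 1.47 in the GFP-negative libraries, a ratio of 0.368. That ratio was the lowest among 15454 genes with at least 10 estimated counts in every library, where the median ratio was 0.999.

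For the other 7 receptors with enough counts the same ratio lay between 0.924 (Epha5) and 1.04 (Epha10). For Epha5 the relative count per TPM was 2.13 to 2.30 in GFP-positive and 2.41 and 2.43 in GFP-negative libraries, without overlap. Of the 15454 genes, 813 had a ratio as low as that of Epha5 or lower, and the median ratio was 0.999. Epha8, annotated with a transcript of 4713 bases as its sole form, had a relative count per TPM of 1.91 in GFP-positive and in GFP-negative cells. GENCODE M21 annotates for Epha2 a coding transcript of 3913 bases and noncoding transcripts of 507, 531 and 969 bases. The sources used here do not name the transcripts that the authors quantified, and whether short Epha2 transcripts make up more of its RNA in GFP-positive cells was not tested.

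**Figure D4:**
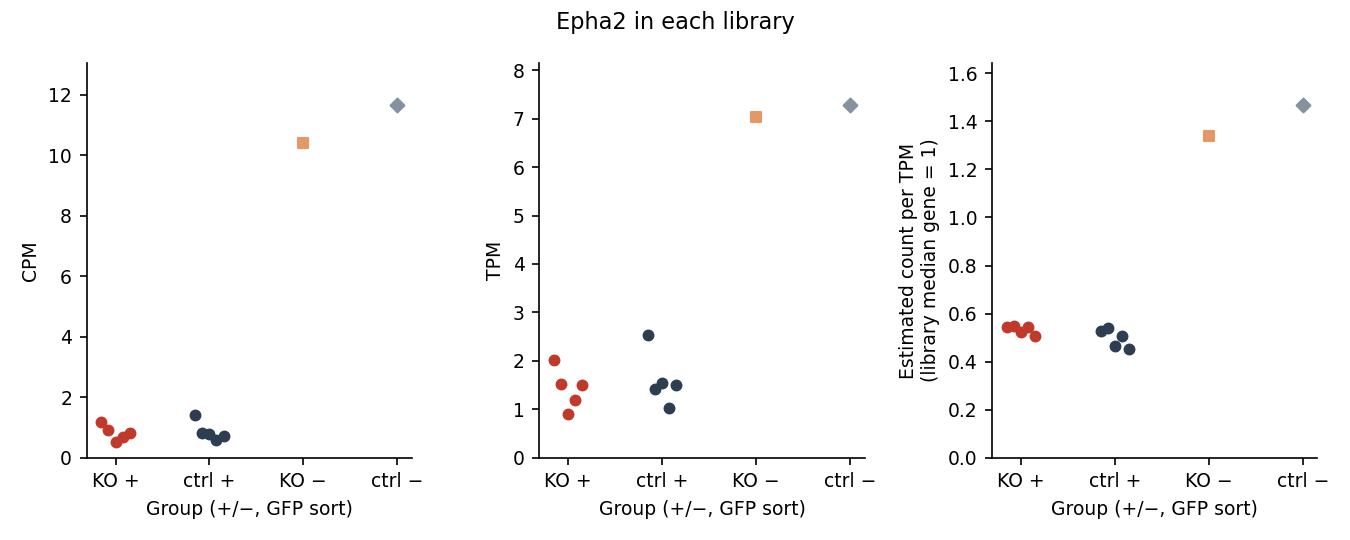
Epha2 in every library as CPM (left), TPM (centre) and estimated count per TPM relative to the library's median gene (right): KO, knockout; ctrl, control; + and −, GFP-positive and GFP-negative. GFP-positive libraries lie below the GFP-negative ones in all panels, at 0.530 to 1.42 against 10.4 and 11.7 CPM, and at 0.452 to 0.546 against 1.34 and 1.47 in the right panel.

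Markers of other cell types moved with the sort. Of 10 progenitor and radial glia markers, 9 had higher means in GFP-negative cells (all but Nkx6-1), and their summed level was 469.6 to 569.6 CPM in knockout and 457.7 to 562.1 CPM in control GFP-positive libraries, against 1843 to 2030 CPM in GFP-negative libraries. All 8 ventral interneuron markers had higher means in GFP-negative cells. Their summed levels were 21.5 to 78.3 CPM in knockout GFP-positive, 20.5 to 113.4 CPM in control GFP-positive and 447.5 to 504.8 CPM in GFP-negative libraries. The corresponding sums for the 7 dorsal cord markers were 4.41 to 35.1, 3.51 to 50.2 and 461.2 to 485.6 CPM. For the 6 sensory and neural crest markers they were 24.3 to 54.0, 25.0 to 52.5 and 194.1 to 211.5 CPM. Erythroid, mesenchyme and endothelial markers were also higher in sum in GFP-negative cells, at 204.2 to 289.0, 28.2 to 28.3 and 8.91 to 11.6 CPM. The same sums were 4.09 to 46.8, 2.49 to 13.9 and 2.91 to 13.6 CPM in knockout GFP-positive libraries, so the endothelial sums overlapped. In control GFP-positive libraries they were 5.06 to 18.6, 3.89 to 6.71 and 2.05 to 5.27 CPM. Of the 6 mesenchyme markers, 1 had a higher mean in GFP-positive cells. Lum was at 0 in the knockout GFP-negative library, and no other marker was at 0 in a GFP-negative library. Past the test and lower in GFP-positive cells were 9 of 10 progenitor, 6 of 8 ventral interneuron and 7 of 7 dorsal cord markers. So were 4 of 6 sensory, 6 of 6 erythroid, 4 of 5 tested mesenchyme and 3 of 6 endothelial ones, against 31.8% of all genes. The part of these cell types in the receptor differences, Epha2 included, was not tested.

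The question the series was designed around is whether loss of Arhgap35 changed gene expression in motor neurons. No EphA receptor passed the test between knockout and control GFP-positive cells. Of the 9 receptors, 8 had enough counts to be tested (Epha1 did not), and 0 of these 8 were called or had an unadjusted p under 0.05 in edgeR's quasi-likelihood test, where 0.0343% of all 17487 genes tested were called and 2.14% had an unadjusted p under 0.05. None of the 9 had knockout and control ranges that were apart, against 0.538% of all genes. DESeq2 and limma on log2(TPM + 1) called 0 of the receptors too. The median log2 fold change of the 8 receptors was -0.03, against -0.002 over all genes.

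The intervals show what sizes of change these libraries allow in the fit without a replicate block. For Epha4, the log2 fold change was 0.04 (95% interval -0.09 to 0.17), with the knockout library higher in 4 of the 5 same-numbered pairs. For Epha5 it was -0.05 (interval -0.14 to 0.04), with knockout higher in 2 of 5 pairs. Both intervals are narrow, so changes beyond 0.17 and 0.14 on the log2 scale lie outside them.

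Epha10 had the largest estimate among the tested receptors, -0.10 (interval -0.26 to 0.06, unadjusted p = 0.205, edgeR adjusted p = 1.00). It averaged 74.6 ± 6.08 CPM in knockout and 79.9 ± 7.64 CPM in control GFP-positive cells (SD, n = 5 each), and knockout was higher in 1 of 5 same-numbered pairs in CPM and in 0 of 5 in TPM. The ranges overlapped, at 67.9 to 81.2 CPM in knockout and 70.7 to 87.4 CPM in control, which does not address the direction within pairs. Under the alternatives that left no library out, the replicate block among them, the estimate ran from -0.12 to -0.10. Epha10 was called in none of them.

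The remaining receptors had estimates under 0.10 in size on the log2 scale. The estimates were -0.08 for Epha3 (interval -0.30 to 0.15), 0.03 for Epha7 (-0.17 to 0.23), -0.02 for Epha8 (-0.26 to 0.22), 0.007 for Epha6 (-0.28 to 0.29) and -0.09 for Epha2 (-0.69 to 0.51). Epha2, at about 1 CPM, had the widest interval, so a moderate change could not have been seen at its depth. Epha3 varied more among knockout than control libraries, with a coefficient of variation of 16.3% against 5.92%, since knockout replicate 1 was low and replicate 3 high. Epha7 varied less among knockout than control libraries, at 3.32% against 16.4%, with control replicate 2 alone at 67.4 CPM. These differences in spread were not tested.

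**Figure D5:**
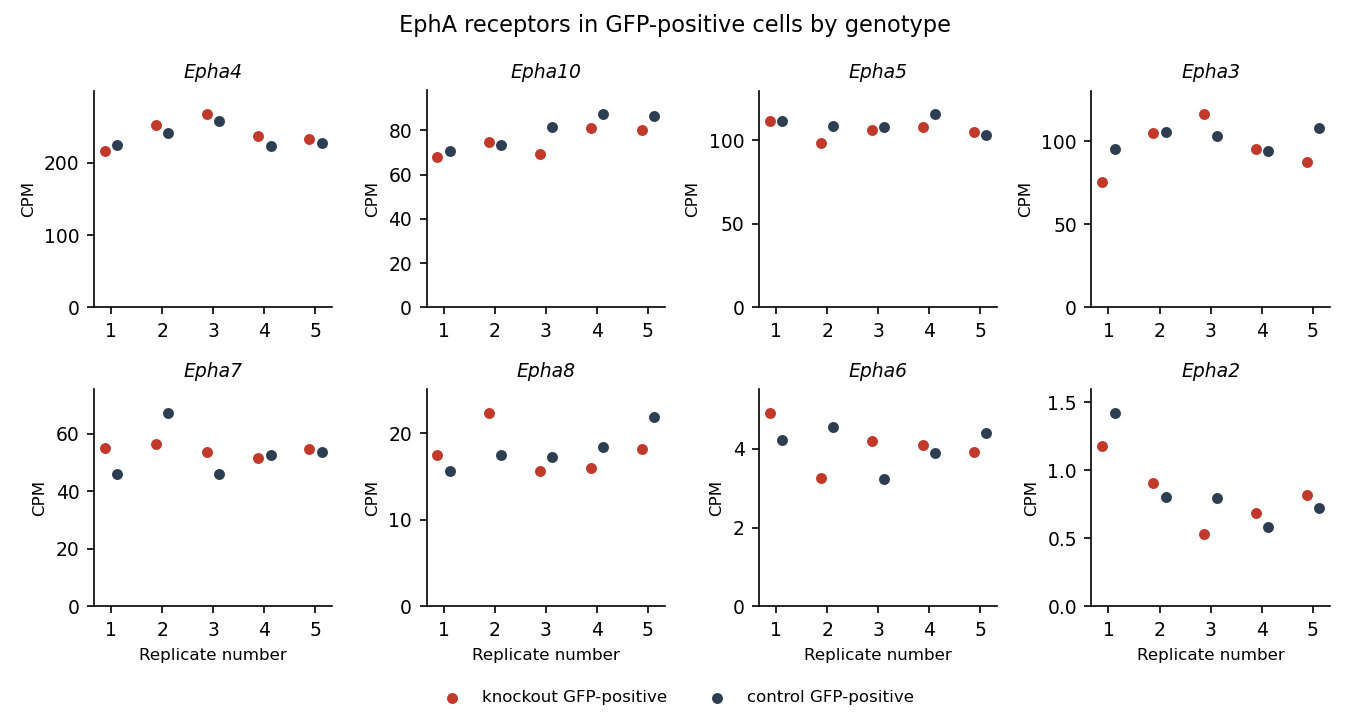
CPM of the 8 tested EphA receptors in each knockout (red) and control (dark blue) GFP-positive library, by replicate number, with axes from 0. Knockout and control points overlap in every panel; the control library of replicate 2 stands highest for Epha7 (67.4 CPM) and that of replicate 1 for Epha2 (1.42 CPM).

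Whether the knockout effect differed between the sorted populations was asked in a fit of 4 group means, in which each lone GFP-negative library was assumed to vary like the replicated groups. Of the 9 receptors, 0 were called and 0 had an unadjusted p under 0.05 by edgeR, against 0.0253% of 19763 genes called and 1.78% with an unadjusted p under 0.05. The difference between the effects ran from -0.17 for Epha6 to 1.09 for Epha1 on the log2 scale, the value for Epha1 with an interval of -0.75 to 2.93.

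Ligands, sister receptors and signalling genes place the receptors in their pathway. In the knockout comparison, 0 of 5 ephrin-A, 0 of 5 EphB, 0 of 3 ephrin-B, 0 of 20 EphA signalling and 0 of 10 motor column genes were called. Of all 17487 genes tested there, 0.0343% were called, so an absence of calls in such short lists says little about them. The smallest p among EphB receptors was that of Ephb1 (log2 fold change -0.10, unadjusted p = 0.136). Among signalling genes it was Rock1, a kinase that RhoA activates (0.08, unadjusted p = 0.146), and among motor column genes Nos1, a marker of preganglionic motor neurons (-0.27, unadjusted p = 0.111). Among ephrin-B genes it was Efnb1 (-0.05, unadjusted p = 0.708), whose sign turned with limma on TPM (0.034). The ephrin-A genes had log2 fold changes between -0.005 (Efna5) and 0.02 (Efna2).

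Between sorted populations, the ephrin-A ligands were split. Efna3 was higher at 100.9 ± 8.68 TPM in GFP-positive and 58.6 TPM in GFP-negative cells (log2 fold change in counts 0.77, edgeR adjusted p = 3.17e-07), and Efna5, a ligand known to repel motor axons, was higher at 30.9 and 18.6 TPM (0.74, adjusted p = 1.11e-08). Efna4 was lower at 7.70 TPM in GFP-positive and 14.0 TPM in GFP-negative cells (-0.89, adjusted p = 0.000398), and so was Efna2 at 34.5 and 42.7 TPM (-0.34, adjusted p = 0.00169). Efna1 did not pass (0.50, edgeR adjusted p = 0.0807, and 0.0357 without knockout GFP-positive replicate 5). Summed ephrin-A TPM was 175.6 ± 10.8 in GFP-positive cells (n = 10) and 135.1 in GFP-negative cells (mean of 2), so the summed levels of EphA receptors and of ephrin-A ligands were both higher in GFP-positive libraries on the TPM scale, with no test of the sums.

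Of 5 EphB receptors, 3 were lower in GFP-positive cells, where 31.8% of all genes were called lower and 30.1% higher: Ephb4, the receptor of venous endothelium among other cells (log2 fold change -3.70, edgeR adjusted p = 2.78e-08), Ephb3 (-1.24) and Ephb2 (-0.50). Ephb6, whose kinase is inactive, was higher (0.74, edgeR adjusted p = 1.21e-07), and Ephb1, which guides motor axons into the ventral limb, did not pass (-0.14, adjusted p = 0.106). All 3 ephrin-B ligands were lower, beside the same 31.8% of all genes: Efnb1 (-2.18), Efnb2 (-1.03) and Efnb3 (-0.30). Summed TPM was 187.2 in GFP-positive and 235.8 in GFP-negative cells for EphB receptors, and 130.4 and 239.3 for ephrin-B ligands. Differences between the classes were not tested.

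Of the 20 EphA signalling and shedding genes, 6 were higher and 8 lower in GFP-positive cells, with a median log2 fold change of -0.02, beside 30.1% higher and 31.8% lower over all genes. Those higher included the guanine nucleotide exchange factors Arhgef15 (1.34) and Ngef (1.33), which bind Eph receptors, and the kinase Cdk5 (0.42). Those lower included the exchange factors Vav3 (-1.57) and Vav2 (-0.74), which take part in Eph receptor uptake, and Sipa1l1 (-1.16), a GTPase-activating protein for Rap that binds EphA4. Of 10 motor column genes, 9 were higher, against the same 30.1% of all genes, among them Isl2 (8.43), Isl1 (3.56) and Mecom (2.85), and Lhx1 was lower (-2.52). Lhx1 is the transcription factor that sets Epha4 levels in lateral limb-innervating motor neurons, and it is also made by spinal interneurons.

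The genes whose levels followed a receptor most closely were sought among 9855 genes with a mean log2 CPM of at least 3. Because the 12 libraries fall into separate clusters by sort, the likeness is given over the 10 GFP-positive libraries alone, as Pearson's r of log2 CPM. For Epha4 the closest genes were Ube3c (0.963), Cyfip2 (0.934) and Klf7 (0.904). For Epha10 they were Zfyve19 (0.978), Srsf5 (0.946) and Zfp57 (0.945), and for Epha5 they were Nfat5 (0.942), Pddc1 (0.920) and Polrmt (0.909). These are descriptions over 10 points that share libraries and depth, picked as the highest of many, and no p is attached to them.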

How the data were processed

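The deposited tables give estimated counts and TPM per gene symbol for 12 libraries, made by the authors with kallisto and mm10 per the submitters' processing notes. Versions, the transcript annotation and the step from transcripts to genes are not given in these sources. The deposited TPM columns sum to 974800 to 1018241, so they do not share a common total, and the sources do not say why. All 12 columns were matched to samples by name, and 0 were left unmatched.

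Estimated counts were rounded to whole numbers. After filterByExpr and TMM scaling, edgeR 4.0.16 (with limma 3.58.1 in R 4.3.3) gave robust quasi-likelihood F-tests, adjusted by Benjamini-Hochberg across every gene tested, with calls at 0.05. CPM use TMM-scaled library sizes, and log2 CPM a prior count of 2. Fold changes are log2 values of the edgeR fit. Means are given with the SD. DESeq2 1.42.0 and limma on log2(TPM + 1) and log2(TPM + 0.1) were alternatives, as were other filters and scalings, left-out libraries and a replicate block. Replicates of a group correlated at r = 0.974 to 0.984.

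Residuals of same-numbered knockout and control libraries correlated at r = 0.292, 0.201, 0.180, 0.245 and 0.250, which pairs them by the data. The labels do not say what a number shares, and the intervals given here come from fits without this pairing. Intervals cover the spread between libraries. The 9 receptors were chosen by symbol, and the receptors, pathway lists and markers were chosen with earlier results of these data known. Of the pathway lists, all ephrin-A genes are named, and of the others up to 3 called genes per direction with the smallest p, or the 1 with the smallest p where none was called. Ephb1 in the sort comparison, Nkx6-1 and Lum fall outside that rule and were picked with their values in view. Gene positions and transcripts come from GENCODE M21 (GRCm38) and promoters from RefSeq (GRCm38.p6).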

Additional observations from a re-analysis of the deposited data

Results flagged for a closer look

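A single receptor value stood apart within its group: Epha2 in control GFP-positive replicate 1, at 1.42 CPM, was the highest of the 5 control libraries, and the nearest of the others was at 0.807 CPM. Its gap to that library was larger than a Dixon test allows for 5 samples. The highest and lowest library were checked in 18 groups (9 receptors in knockout and in control GFP-positive cells), and 1 was past the limit; chance flags about 1 in 20. Knockout replicate 1 was likewise the highest of its group for Epha2, at 1.18 CPM, and both lie far below the 10.4 and 11.7 CPM of the knockout and control GFP-negative libraries.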

How the results depend on the processing

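In GFP-positive over GFP-negative cells, Epha10, Epha8, Epha4 and Epha5 stayed higher under all alternatives run, and Epha2 stayed lower in all that tested it, with log2 fold changes of -3.82 to -1.72; 0 receptors were called lower with a CPM of at least 1 in 5 libraries, a filter that removed Epha2. Epha6 and Epha7 were no longer called with library size alone as scaling (adjusted p = 0.0581 and 0.0533) or in control libraries alone (0.112 and 0.172), Epha6 in knockout libraries alone (0.256), and Epha7 with limma on unfiltered log2(TPM + 1) (0.0753). Epha3 was not called except without knockout GFP-positive replicate 1, and was at 0.0057 with the replicate block. Epha1 turned to -0.022 with unfiltered limma and -0.20 in control libraries alone, and ran from -0.22 to 0.87 with 1 library left out. Between knockout and control, 0 receptors were called under any alternative. With 1 library left out, log2 fold changes ran from -0.15 to -0.00050 for Epha3, -0.07 to -0.02 for Epha5, -0.14 to -0.06 for Epha10, -0.25 to 0.18 for Epha2, -0.0020 to 0.076 for Epha4, -0.067 to 0.077 for Epha6, -0.019 to 0.13 for Epha7 -0.11 to 0.059 for Epha8 and -0.11 to 0.060 for Efnb1, which with limma was 0.034 on log2(TPM + 1), filtered or not, and 0.037 on log2(TPM + 0.1). Over all genes, 6 were called there, 14 with DESeq2, 0 with limma on log2(TPM + 0.1) or unfiltered log2(TPM + 1), and 0 to 8 with 1 library left out. For the knockout effect in GFP-positive minus GFP-negative cells, 5 were called, 2 with DESeq2, 0 with limma on log2(TPM + 1), 245 when unfiltered, 1 with the replicate block and 0 to 6 with 1 library left out. The replicate block ended no receptor's call but that of Epha7. For the sort, that block rests on replicate number 1, the number of both GFP-negative libraries. The causes were not tested. With 2 GFP-negative libraries and few counts, Epha1 and Epha2 are the least precise.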
